A study of Bombyx mori with 64 samples.

Results

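The malpighian tubule of the silkworm *Bombyx mori* larva was described by its miRNA signals against those of all other larval tissues of the same age. The members were the arrays whose labels name the malpighian tubule (MT) of day 3 larvae of the fifth instar, which gave 4 of the 64 arrays of the series. They stand for 2 RNA specimens, 1 from females and 1 from males of the bivoltine strain DaZao, each hybridized to slides a and b. The comparison set was the 32 other arrays of day 3 fifth-instar larvae. They hold 16 specimens of 9 tissues, namely both silk gland segments (anterior and posterior), head, midgut, body wall, hemocyte and fat body from each sex, plus the ovary and the testis. A second comparison used 16 metamorphosis arrays with the same date in their file names as the MT arrays. They hold 8 specimens of mixed sex, from day 7 fifth-instar larvae, 0 h spinning larvae, 0 h prepupae and day 1 pupae. All larvae were reared on mulberry leaves with no further treatment. How many larvae were pooled into a specimen was not given in the sources used here. Since slides a and b carry 1 RNA, n gives the number of specimens, and p-values measure only the spread between specimens. Against the larval tissues, that spread is the difference between the female and the male specimen within tissues. In the second comparison it also holds the differences among tissues and stages of the metamorphosis specimens.

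Malpighian tubules are blind-ended excretory tubules that open into the insect gut at the border of midgut and hindgut. Their epithelium secretes the primary urine by transporting ions and water, and it clears metabolic waste and foreign compounds from the hemolymph. miRNAs are short RNAs that are cut from hairpin precursors and guide Argonaute proteins to matching messenger RNAs, whose translation or stability they lower. Each tissue of an animal holds its own mixture of them, with some miRNAs shared by most tissues and others largely kept to 1.

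Low molecular weight RNA was labelled with Cy3 and hybridized to 106 miRNA probes, each printed as 3 spots. Signals are the background-corrected intensities that the authors had multiplied by 1 factor per array, based on U6 and 5S rRNA. A signal of 1000 or more was taken as expressed, as in the methods of the study. Probes carry only serial names, SW-1 up to SW-106, and no miRNA names, so values are given by probe and no sequence is printed. Cell type markers were not checked as a set. Several miRNAs have more than 1 probe, and many of the 106 probes were designed for miRNAs of other organisms without a match in the silkworm genome. The serial names do not tell which probes these are. Across probes, slides a and b of the MT had a Pearson correlation of 0.982 in the female and 0.990 in the male. The dates in the file names put each larval tissue on a date of its own, apart from ovary and testis, which shared 1. Tissue and date therefore cannot be told apart, except for a set of metamorphosis arrays that shares the date of the MT and is compared further on. The MT arrays had probe medians of 788 to 1018, against 12.8 to 637.5 on the other larval arrays apart from the body wall, whose medians were 628.5 to 1446. Control spots named blank read 173 to 2160 on the MT arrays, 1889 to 2712 on the body wall arrays and up to 254 on the remaining larval arrays. A second kind of control spot, named Blank, did not follow this, with 8.33 to 10.8 on the MT arrays, 5.83 to 27.8 on the body wall arrays and up to 150.5 on the remaining ones. The part of this raised low range in the results was not tested.

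3 probes dominated the MT, and their level there was of another order than in any other larval tissue. SW-106 gave normalized signals of 67818 and 72103 on the female slides and 53663 and 59078 on the male slides. Its highest signal in any of the 16 other specimens was 4509, in the female anterior silk gland, with a median of 896 and a lowest value of 15.0. All 4 MT arrays thus lay far above every other larval specimen, and the groups did not overlap.

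SW-54 gave 67871 and 68419 in the female and 47494 and 57180 in the male. Elsewhere it ran from 10.7 to 3474, with a median of 816.5. SW-8 gave 62149 and 70894 in the female and 53651 and 56478 in the male, against 11.3 to 3240 elsewhere, with a median of 1267. For both probes the MT specimens again lay above all the others without overlap.

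These 3 probes were at the upper end of the scanner. A net signal of 64000 or more, close to the ceiling of the image, was reached by all 12 SW-106 spots of the MT, by 8 of the 12 spots of SW-54, with at least 1 on each array, and by 4 of the 12 spots of SW-8, on 2 arrays. The mean net signal of SW-106 was 65063 in the female and 65054 in the male. Its lower normalized value in the male therefore follows from the scaling factor alone, and the sexes cannot be compared for it. Under the deposited scaling, folds over the other tissues are lower bounds for all 3 probes, and another scaling can give smaller sizes. The SW-106 signal of the MT was at least 14.8-fold that of the anterior silk gland, the tissue with the next highest level, and at least 24.2-fold that of the posterior silk gland. It was at least 44.9-fold that of the midgut and at least 56.9-fold that of the head. For SW-54 the MT signal was at least 18.1-fold that of the anterior silk gland and at least 28.9-fold that of the posterior silk gland. For SW-8, which was at the ceiling on 2 of the 4 arrays, it was at least 22.0-fold that of the anterior silk gland.

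SW-33 was likewise highest in the MT and next highest in the silk glands, and none of its MT spots was near the ceiling. It gave 13140 and 15739 in the female and 12662 and 11178 in the male. The other specimens ran from 11.0 to 5260, with a median of 1652, so the MT was again highest without overlap. On the log2 scale the MT exceeded the anterior silk gland by 1.56 ± 0.40 (SE; limma, adjusted p = 0.0016) and the posterior silk gland by 1.95 ± 0.40 (adjusted p = 0.0002). It exceeded the midgut by 2.72 ± 0.40 (adjusted p = 1.02e-05) and the head by 2.57 ± 0.40 (adjusted p = 2.30e-05).

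**Figure D1:**
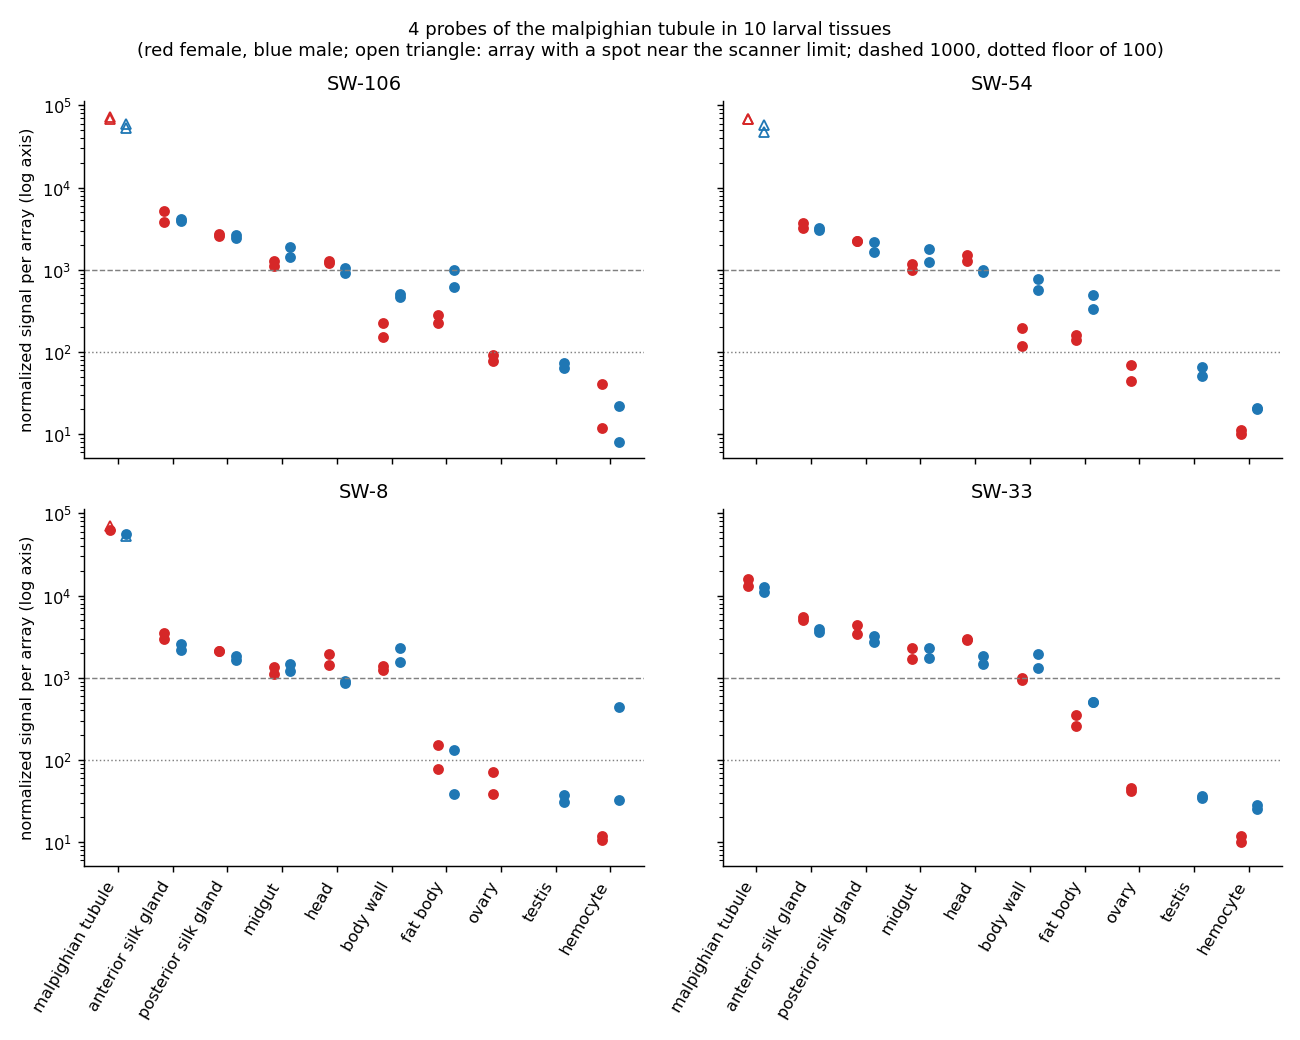
Normalized signals per array on a log axis for SW-106, SW-54, SW-8 and SW-33 in 10 larval tissues, with 2 slides per sex (red female, blue male). Open triangles mark arrays with at least 1 spot near the scanner ceiling, the dashed line is the threshold of 1000 and the dotted line the floor of 100 used before log2; the MT arrays lie above all others in each panel.

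The 4 probes also varied together outside the MT. In the silk glands and the midgut all of them reached 1000 in both sexes, and in ovary and testis none passed 100. SW-106, SW-54 and SW-33 had at most 26.5 in either hemocyte specimen, and SW-8 had 11.3 and 234.8 there. Over the 9 other tissues, the tissue means of their log2 signals had pairwise Pearson correlations of 0.852 to 0.990. These were taken after the floor of 100. At that floor lay ovary and testis for all 4 probes, and the hemocyte for SW-106, SW-54 and SW-33, so these points are tied. The probe most like SW-106 over these 9 points was SW-54 (0.990), followed by SW-33 (0.952), SW-8 (0.852) and SW-11 (0.833). This is a description over tissues that were each hybridized on their own date, and probes for the same miRNA cannot be told from probes for different ones here.

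The probes that stood out in the MT held a large part of its summed signal. SW-106, SW-54, SW-8 and SW-33 together made up 42.1% of the signal summed over 106 probes in the female and 43.2% in the male. The same probes held 14.6% to 15.2% in the anterior silk gland, 9.71% to 12.8% in the posterior silk gland, 5.78% to 6.98% in the midgut and 0.0977% to 1.98% in all other specimens. These probes were chosen for their high signals in the MT relative to other tissues, so lower shares elsewhere follow in part from the choice. The 3 brightest probes of each specimen held 39.3% in the female MT and 40.2% in the male. In the fat body their share was 48.4% and 45.7%, and in the hemocyte 38.8% and 32.9%. All other specimens had 15.3% (female body wall) to 29.5% (male head). A sum resting on few probes was thus not particular to the MT. Because spots at the ceiling read too low, the MT shares may be larger.

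Against the mean of the 9 other tissues, 42 of the 55 probes tested were higher in the MT (76.4%) and none was lower (0%). The tested probes were those at 1000 or more in at least 2 of the 18 specimens, and the test was limma with a Benjamini-Hochberg adjusted p under 0.05. This filter counts the MT specimens too, and SW-22, SW-31, SW-47 and SW-65, all among the 42, would not have passed it without them. When the same filter was set on the 16 specimens of the other tissues alone, an alternative added after the data were seen, 51 probes were tested, of which 39 were higher and none lower. At an unadjusted p under 0.05, 44 differed, all of them higher. The largest differences on the log2 scale were those of SW-8, SW-54 and SW-106. Because of the ceiling they have only lower bounds under the deposited scaling, of 6.90, 7.04 and 6.95, and no order among themselves. SW-33 came next (4.26 ± 0.30 SE). The floor of 100 shortens all 4 differences where a tissue lay at it.

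SW-27 came next, with 48049 and 57626 in the female and 18892 and 18777 in the male. The head had 26351 and 20089, and every other specimen stayed at 5309 or less. The MT and the head thus overlapped for SW-27, while all other tissues lay below both. SW-11 followed with 7686 and 6693 in the female but 880 and 916 in the male, and a highest value of 2162 elsewhere, in the female anterior silk gland. SW-74 had 9310 and 9937 in the female and 12361 and 15342 in the male, below the 23357 and 22678 of the head and level with the 13155 of the male body wall.

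The 3 remaining probes among the 10 largest differences were dim. SW-22 gave 3135, 2788, 2996 and 2405 on the 4 MT arrays, against at most 1587 elsewhere, in the male body wall. SW-32 had specimen means of 1278 and 1070, and SW-37 had 1283 and 1197. For SW-32 and SW-37 the body wall was as high, at 1077 to 1777, and no other specimen passed 273.2.

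How many probes counted as higher depended on how the arrays were made comparable. With each array centred on its median, the difference of the MT from the other tissues shifted by -2.06 on the log2 scale, and 12 probes were higher and 22 lower. Quantile normalization shifted it by -1.56 and gave 16 higher and 16 lower. The 12 that stayed higher under the centring were SW-5, SW-8, SW-11, SW-22, SW-27, SW-32, SW-33, SW-37, SW-47, SW-54, SW-74 and SW-106. All 12 also stayed higher under quantile normalization. Among them, SW-22 and SW-47 passed the filter only through the MT specimens, so their calls are no support for a difference. Of the 42 probes, 9 turned to lower under the centring and 4 under quantile normalization. For most probes the direction is therefore relative to the scaling, whereas SW-33 kept a difference of 2.52 under the centring, and SW-8, SW-54 and SW-106 kept differences of at least 5.05.

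**Figure D2:**
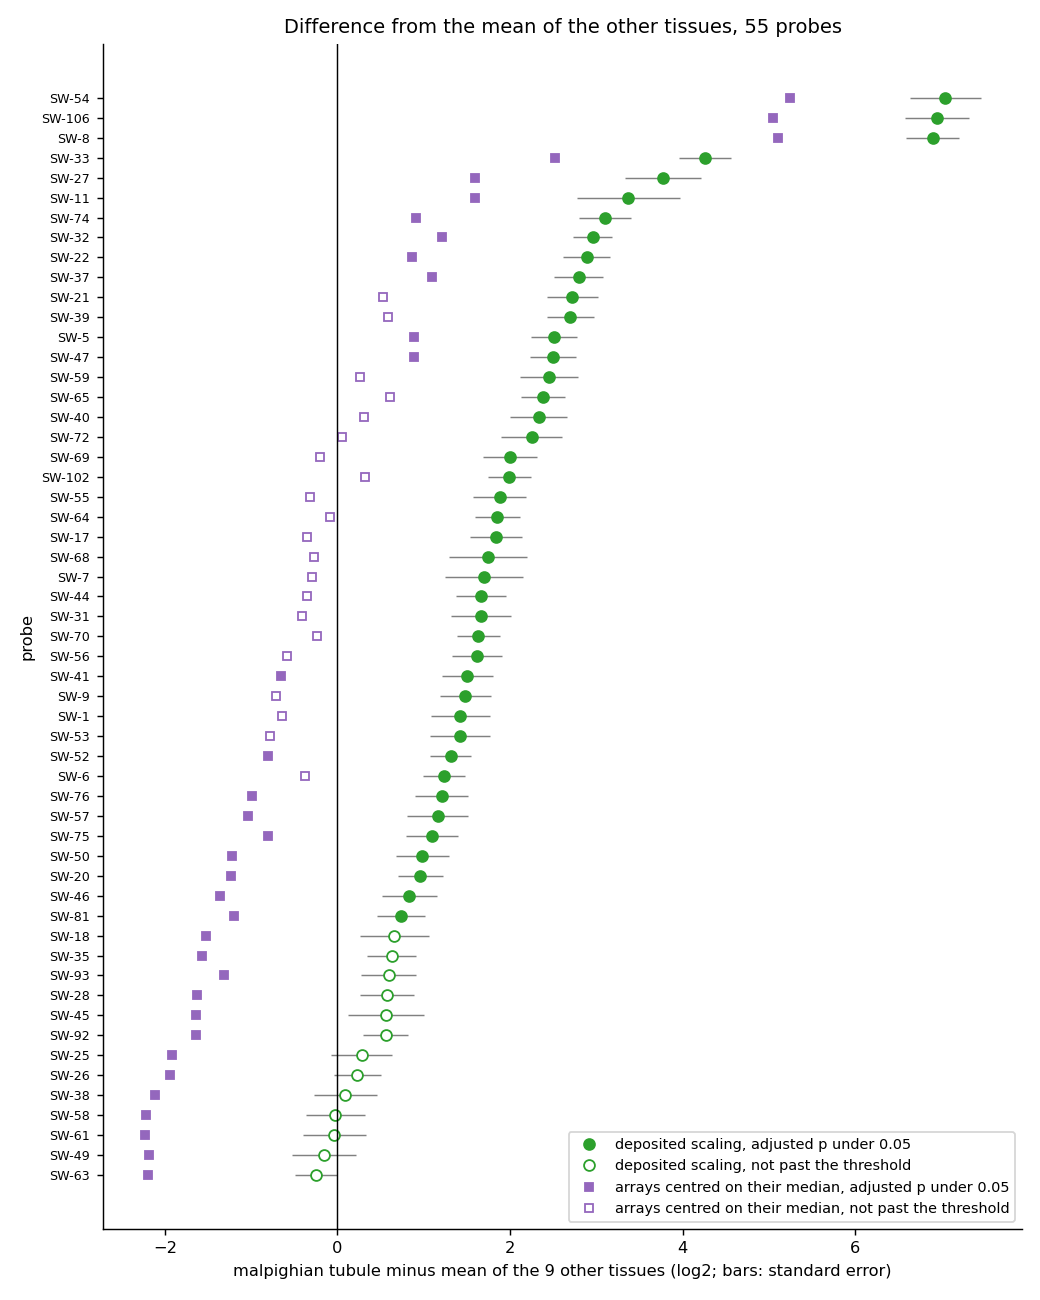
MT minus the mean of the 9 other tissues on the log2 scale for the 55 probes tested, with standard errors (green circles, n = 2 MT specimens), and the same with each array centred on its median (purple squares); filled symbols passed an adjusted p of 0.05. SW-54, SW-106 and SW-8 are lower bounds because of the scanner ceiling. The 4 probes at the top stand apart from a continuous series, which the centring moves to the left by about 2.06.

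The MT was then set against each tissue in turn. It had the most probes higher against the hemocyte, with 46 of 55 (83.6%), the fat body, with 45 (81.8%), and the midgut, with 44 (80%). In each silk gland segment 42 were exceeded (76.4%), in the testis 38 (69.1%) and in the ovary 34 (61.8%). Few probes were lower in the MT, namely 4 against the fat body (7.27%), 2 each against ovary and testis (3.64%), 1 each against midgut and hemocyte (1.82%) and none against either silk gland segment (0%). Head and body wall differed from this pattern. Against the head 14 were higher (25.5%) and 18 lower (32.7%), and against the body wall 15 were higher (27.3%) and 6 lower (10.9%). The 2 body wall specimens were unlike, with 34 probes expressed in the female and 65 in the male. The balance against the body wall turned to more lower than higher when only its male specimen was kept. SW-22, SW-31, SW-47 and SW-65, which passed the filter only through the MT specimens, are all counted as higher against hemocyte, fat body and midgut. With the filter set on the other tissues alone, 51 probes were tested. Then 42 were higher and 1 lower against the hemocyte, 41 and 4 against the fat body and 40 and 1 against the midgut. Against the head they were 11 and 18, and against the body wall 15 and 6. All these counts hold for the deposited scaling only. With each array centred on its median, 13 probes were higher and 30 lower against the hemocyte, 20 and 22 against the fat body, 11 and 13 against the midgut, 12 and 26 against the ovary and 12 and 15 against the testis. Against the anterior silk gland they were 17 and 8, against the posterior segment 16 and 15, against the head 11 and 32 and against the body wall 15 and 5. With quantile normalization, 11 to 21 were higher and 12 to 18 lower over the 9 tissues.

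**Figure D3:**
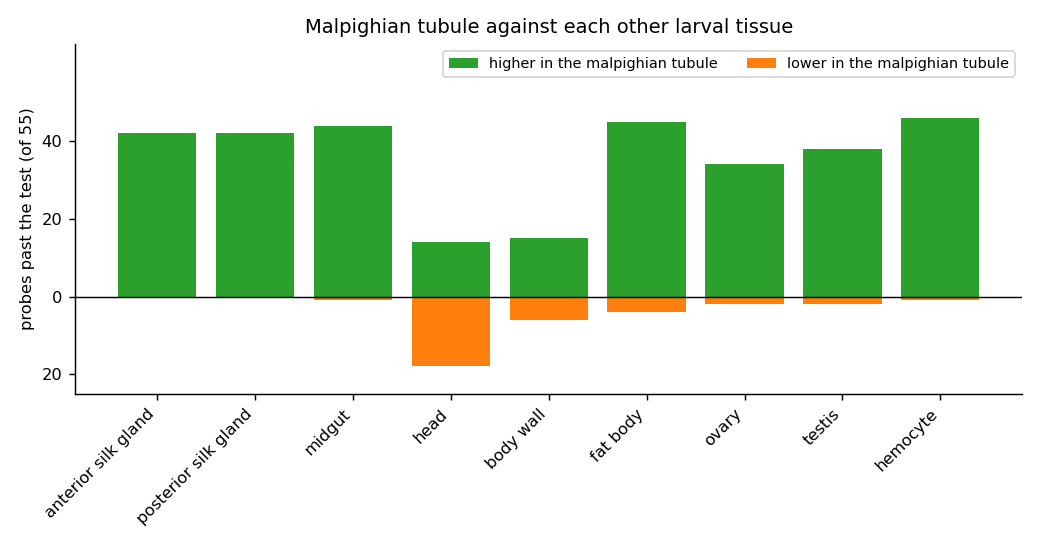
Number of the 55 tested probes past the test in the MT against each of 9 larval tissues, with those higher in the MT drawn upward (green) and those lower drawn downward (orange). Under the deposited scaling, only head and body wall had fewer than 30 probes below the MT.

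Higher in the MT than in each of the 9 tissues were 5 of the 55 probes (9.09%): SW-8, SW-22, SW-33, SW-54 and SW-106. SW-22 passed the filter only through the MT specimens, so its call is no support for a difference. By their values, both MT specimens lay above all 16 other specimens for 7 of the 55 (12.7%), which are those 5, SW-39 and SW-9. SW-39 gave 2500 in the female and 1727 in the male, against at most 1479 in the male body wall. SW-9 gave 10789 and 11311 and was expressed in all 10 tissues, with 9630 in the male body wall as the next value. The count of 7 was taken under the deposited scaling only. Relative to the mean of the others, SW-9 had a log2 difference of -0.72 after centring and -0.37 after quantile normalization. No tested probe had both MT specimens below all others. SW-8, SW-54 and SW-106 passed against each tissue also after centring and after quantile normalization, whereas SW-22 and SW-33 did not pass all 9 under either.

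The head shared several of the brightest MT probes. SW-21 had specimen means of 19520 and 17820 in the MT and differed from the head by -0.11 ± 0.40 on the log2 scale (adjusted p = 0.87). SW-59 had 14444 and 19700 and differed by 0.00 ± 0.44 (adjusted p = 0.99), and SW-69 by -0.37 ± 0.41 (adjusted p = 0.48). Among those lower than in the head, SW-7 differed by -4.31 ± 0.60 on the log2 scale (adjusted p = 6.39e-06), SW-49 by -3.87 ± 0.49 (adjusted p = 2.94e-06) and SW-63 by -3.19 ± 0.33 (adjusted p = 1.41e-07). With the net signals before scaling, 29 probes were higher than in the head and 5 lower, so the balance against the head depended on the scaling.

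SW-7 is the probe with the highest signal of the larval arrays, which the study assigns to miR-1, a miRNA of muscle in many animals. It gave 4878 and 5282 in the female MT and 3042 and 2738 in the male MT. The head specimens had 78944 and 73289, the male body wall 24640 and the midgut 12686 and 9110. The MT thus ranked as the fourth tissue for SW-7, above the silk glands, fat body, gonads and hemocyte. SW-68 had 4689 and 2847 in the MT, below the 18688 and 19837 of the head and the 30712 of the male body wall, which was its highest value.

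Of the 6 probes lower than in the body wall, SW-63 differed by -2.80 ± 0.33 on the log2 scale (adjusted p = 1.10e-06) and SW-6 by -2.37 ± 0.32 (adjusted p = 7.77e-06). SW-63 had at most 592 in the MT, below the 2937 and 5083 of the body wall and the 5501 and 4556 of the head. SW-6 had 747 and 702 in the MT against 3742 and 3752 in the body wall. Both probes were thus under 1000 in the MT and well above it in body wall and head, without overlap. SW-52, SW-68, SW-81 and SW-92 were the other 4. Quantile normalization raised this number from 6 to 17.

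Among tissues, the MT profile over the 55 probes correlated most with the anterior silk gland (Pearson 0.703, Spearman 0.684) and least with the body wall by Pearson (0.226) and the testis by Spearman (0.338). The 4 leading probes had much to do with this order, a point examined after their values were seen. Without SW-106, SW-54, SW-8 and SW-33, the correlations over 51 probes lay between 0.605 and 0.706 for all 9 tissues, with the midgut highest (0.706), so that no tissue was clearly the nearest. Probes on 1 array are not independent, and no test was made.

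In at least 1 sex, 50 of the 106 probes were expressed in the MT, 41 of them in both. By signal grade, the female had 24 probes from 1000 to below 5000, 12 from 5000 to below 10000 and 10 at 10000 or more, and the male had 28, 6 and 11. The number rested on the threshold, with 31 probes at 2000 and 88 at 500. Between 500 and 1000 lay 35 probes in the female and 40 in the male, against 3 to 13 in the 14 specimens other than the MT and the body wall. The body wall had 31 and 23 in that range. On the 4 MT arrays, 59 to 83 probes had 50% or more of their pixels above the background by 2 SD, against 6 to 51 on the other larval arrays apart from the body wall (43 to 77).

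Of the 50 probes, 12 were expressed in all 9 other tissues too. The body wall shared 45 of them (90% of the MT set and 69.2% of its own), the head 37 (74% and 82.2%) and the midgut 28 (56% and 96.6%). All probes expressed in the silk gland segments, the fat body and the hemocyte were expressed in the MT as well. The MT shared 7 probes with 1 other tissue only, which in each case was the body wall: SW-5, SW-22, SW-31, SW-32, SW-37, SW-47 and SW-65. Apart from SW-22, none of these differed from the body wall by the test, with differences of -0.50 ± 0.46 (SW-31) to 0.20 ± 0.35 (SW-47) on the log2 scale. Body wall and MT were the only larval tissues with an array whose blank control spots read above 254. On slides a and b, the male body wall had 72 and 48 probes at 1000 or more. Between these slides 19 probes were 1.5-fold apart, against 0 to 3 in every other specimen, although their Pearson correlation was 0.975. The sharing with the body wall rests in part on this specimen.

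SW-30 and SW-94 passed 1000 in no other tissue. SW-94 had 1079 and 1199 in the female and 992 and 984 in the male, with the male body wall at 991. SW-30 had 889 and 772 in the female and 1306 and 1074 in the male, with the male body wall at 963. Each reached the threshold in 1 sex only and overlapped with the male body wall, so neither was kept to the MT beyond the spread.

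At the other end, only SW-26 stayed under 1000 in both MT specimens (729 and 825) while it reached 1000 in at least 4 other tissues, with its highest value of 4105 in the testis. The 5 tested probes with the lowest differences from the mean of the others were SW-63 (-0.25 ± 0.25), SW-49 (-0.15 ± 0.37), SW-61 (-0.04 ± 0.36), SW-58 (-0.02 ± 0.34) and SW-38 (0.09 ± 0.37). None passed the test as deposited. SW-58, SW-61 and SW-38 were expressed in all 10 tissues. SW-61 had 2757 and 2150 in the MT and 1169 to 4726 elsewhere, SW-58 had 7000 and 5455 against 3119 to 17501, and SW-38 had 6513 and 3377 against 1310 to 15057. In each case the MT lay within the range of the other specimens. SW-49 had 769 and 803 in the MT and 12005 and 10613 in the head.

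The 2 sexes of the MT were then compared. The ratio of female to male had a median of 1.20 over the 50 expressed probes, with 36 higher in the female and 14 in the male, and 40 lay within 1.5-fold. On both slides, 8 probes were at least 1.5-fold higher in the female with signals of 1000 or more there, and none was so in the male. The ratio of the specimen means was largest for SW-11, at 8.01, followed by SW-45 (3.68), SW-27 (2.81), SW-18 (2.66) and SW-31 (2.46). SW-38 (1.93), SW-7 (1.76) and SW-53 (1.69) were closer to the limit.

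For SW-11 the female slides exceeded the male ones by 8.74-fold (a) and 7.31-fold (b). SW-45 gave 19681 and 25122 in the female and 6726 and 5445 in the male, and SW-18 gave 3714 and 4273 against 1711 and 1289. For all 8 probes both female slides lay above both male slides by 1.5-fold or more in every pairing, a check added after the data were seen. After division by the median ratio, or with net signals, 5 remained higher in the female (SW-11, SW-18, SW-27, SW-31 and SW-45), and SW-30, SW-59 and SW-74 became at least 1.5-fold higher in the male. With 1 specimen per sex, these ratios have no test. The study lists MT sex ratios by miRNA name. Rounded as there, the slide ratios of SW-11, SW-45, SW-27 and SW-31 match those of miR-274, miR-8, miR-31a and miR-286. Those of SW-38, SW-7 and SW-53 match miR-200b, miR-1 and let-7a. No MT entry there matches SW-18. These pairings rest on the values alone.

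**Figure D4:**
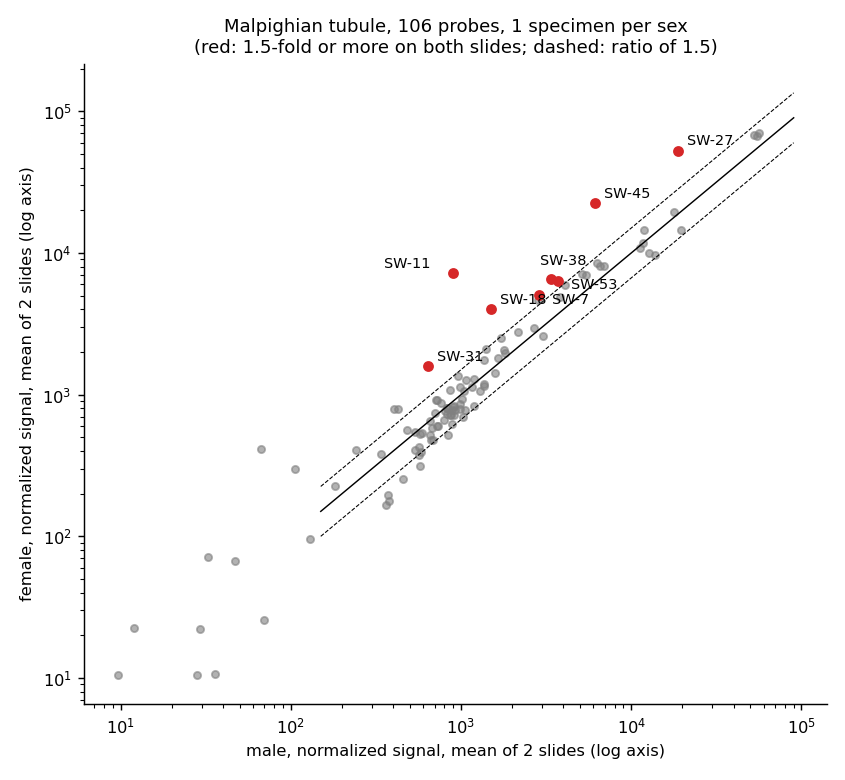
Female against male MT specimen for 106 probes, each point the mean of 2 slides, on log axes; the solid line marks equality and the dashed lines a ratio of 1.5. Red points are the 8 probes at least 1.5-fold higher in the female on both slides with female signals of 1000 or more, with SW-11 farthest from the line at 8.01.

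Whether the sex difference of the MT departed from that of the 7 other tissues with both sexes was tested as a term of a limma model over 16 specimens. Of 55 probes none passed (0%), and 5 had an unadjusted p under 0.05. SW-11 had the smallest p, with a difference of 2.81 ± 0.86 (SE) on the log2 scale (adjusted p = 0.16). Over the alternatives its adjusted p ran from 7.01e-06, without the head, to 0.86, with a floor of 10. In the head SW-11 had 796 in the female and 95.3 in the male, a ratio of 8.35 like that of the MT but below the threshold of expression.

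The date of the MT hybridizations was shared by 16 arrays of the metamorphosis experiment, which hold 8 specimens of mixed sex. They are fat body of day 7 fifth-instar larvae, body wall, silk gland and fat body at the onset of spinning (0 h), midgut and fat body of 0 h prepupae, and body wall and fat body of pupae, day 1 (1 label of the pupal fat body reads day 2). They differ from the MT in tissue and stage, and the authors scaled them by another method. Net signals, with each array centred on its median, were therefore compared by limma over 69 probes at 1000 or more in at least 2 of these 10 specimens. Against them 4 probes were higher in the MT (5.8%) and 2 lower (2.9%), and 14 had an unadjusted p under 0.05.

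The 4 higher ones were SW-106, SW-54, SW-8 and SW-33. SW-106 had net signals of 65063 and 65054 in the MT against 86.3 to 7516 in the 8 others, a difference of 6.04 ± 1.25 (SE) on the log2 scale (limma, adjusted p = 0.0088). SW-54 was higher by 5.65 ± 1.08 (adjusted p = 0.0062), SW-8 by 4.99 ± 0.73 (adjusted p = 0.0018) and SW-33 by 3.10 ± 0.57 (adjusted p = 0.0062). Differences of the first 3 are compressed by the ceiling. For each of the 4, both MT specimens lay above all 8 others on this date. Prepupal midgut, with a net signal of 7516 for SW-106, and silk gland at spinning, with 3062, were the nearest, as the silk glands and the midgut were among the day 3 tissues.

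The 2 lower ones were SW-61 and SW-101. SW-61 had centred values of 0.80 and 0.66 in the MT and 1.92 to 2.36 in the others, a difference of -1.41 ± 0.37 (adjusted p = 0.029). SW-101 had -2.06 and -2.01 against -1.38 to 0.23, a difference of -1.56 ± 0.40 (adjusted p = 0.029). Neither overlapped with the other specimens, but both lost the call in several alternatives, among them a floor of 1000, under which no probe was lower. Without 1 of the MT specimens only SW-8 passed as higher, although SW-106, SW-54 and SW-33 kept differences of 3.08 to 6.09. Without the silk gland at spinning, 7 probes were higher.

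**Figure D5:**
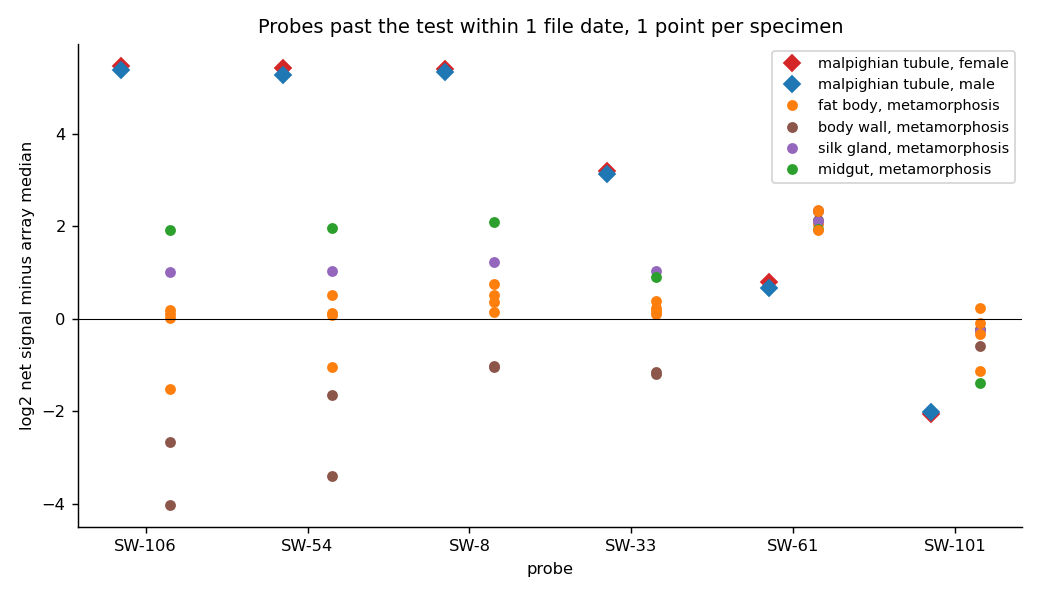
Net signals on the log2 scale after each array was centred on its median, for the 6 probes past the test within the date of the MT arrays; diamonds are the 2 MT specimens and circles the 8 metamorphosis specimens, coloured by tissue. The MT lies above all others for the 4 probes on the left and below them for SW-61 and SW-101.

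The 42 probes that were higher than the mean of the larval tissues were all tested on this date. There 24 of them had a positive difference, 4 passed, and their median difference was 0.18 on the log2 scale, against 1.87 in the larval comparison. Both comparisons share the MT specimens. Over all tested probes the median difference was -0.10 on this date and 1.63 in the larval comparison. SW-22, which exceeded each larval tissue, was higher by 1.05 ± 0.36 on this date without passing (adjusted p = 0.11), and SW-27 by 0.90 ± 0.82 (adjusted p = 0.54).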

How the data were processed

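Processed values of 52 of the 64 arrays were used. 36 are of day 3 larvae (4 of the MT) and 16 are metamorphosis arrays of the same file date. The authors scanned the slides with LuxScan, subtracted the local background to give net signal intensities, gave spots without a positive signal the value 10, exchanged outlier spots, scaled each array by 1 factor and averaged the 3 spots of a probe. These deposited intensities are on a linear scale. The deposited percent of pixels above background served only as a description. Aligners and builds do not apply, and the formula of the factors is not given in the sources used here. Factors were 0.825 to 1.11 on MT arrays and 0.635 to 3.17 on the other larval arrays. The methods give U6 and 5S rRNA as their basis, and the 5S rRNA spots were near the ceiling (net 64968 to 65133 on MT arrays). 2 sentences of the study give another larval day, and the labels' day 3 was used.

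Signals under 100 were set to 100, taken to log2 and averaged over slides a and b, so that 1 specimen is 1 replicate. A means model of 10 tissues was fitted with limma 3.58.1 in R 4.3.3 (lmFit, eBayes with trend), with Benjamini-Hochberg adjustment within each comparison over 55 probes (69 for the date comparison). Ovary and testis have 1 specimen each, assumed to vary like the others. The fits were tested on simulated data. The number of arrays limits the precision. Sexes come from different animals, so sex as a block of the tissue fit was an alternative only, over the tissues with both sexes. The authors' methods name SAM, and limma was used here. Tables and figures were made with Python 3.11.15 and pandas 2.3.3.

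The probes and lists were chosen with earlier results of these data known. Named are the 10 probes of largest difference and the 5 lowest, probes higher than each tissue, with a spot near the ceiling, expressed in the MT and at most 1 other tissue, not expressed in the MT but in at least 4 others, or with a sex ratio of 1.5 or more, and SW-7. Other probes were named after their values were seen.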

Additional observations from a re-analysis of the deposited data

Results flagged for a closer look

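The 8 probes that were higher in the female MT were all at least 1.5-fold higher in the male body wall, so that the sexes went opposite ways in these tissues. The female over male ratios of specimen means in the MT were 1.76 for SW-7, 8.01 for SW-11, 2.66 for SW-18, 2.81 for SW-27, 2.46 for SW-31, 1.93 for SW-38, 3.68 for SW-45 and 1.69 for SW-53. In the body wall the ratios of male over female were 5.54 for SW-7, 1.97 for SW-11, 3.60 for SW-18, 4.31 for SW-27, 2.39 for SW-31, 3.23 for SW-38, 3.62 for SW-45 and 2.83 for SW-53. For SW-11 both body wall signals, 238.5 in the female and 470 in the male, were below the threshold of expression. Of the 50 probes expressed in the MT, 44 were at least 1.5-fold higher in the male body wall and none in the female body wall, so the body wall values are not particular to these 8. The difference between these 2 tissues was not tested by itself. Set against the 7 tissues that also have a female and a male specimen, the sex difference of the MT passed the limma test for none of the 8 (adjusted p of 0.16 to 0.94).

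The control spots named blank, which the comparisons do not use, read up to 2160 on an MT array, above the highest value of 254 on the larval arrays other than those of the body wall. The spots named Blank stayed at 10.8 or less on the MT arrays. What these spots hold is not given in the sources used here.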

How the results depend on the processing

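Against the mean of the other tissues (42 higher, 0 lower), the counts were 12 and 22 with arrays centred on their median, 16 and 16 with quantile normalization, 20 and 3 with a floor of 1000 and 81 and 3 with all 106 probes tested. With the MT specimens left out of the filter, 39 of 51 were higher, and the probes higher than each tissue were SW-8, SW-33, SW-39, SW-54 and SW-106. Leaving out 1 specimen gave 36 to 47 higher and 0 lower, and 41 or more of the 42 remained except without the female MT (36). Sex as a replicate block gave 46 higher and left the 42 calls in place. SW-38 turned to -2.11 under the centring and -1.44 under quantile normalization. Probes higher than each tissue numbered 5, and 3 under the centring and under quantile normalization, 8 with all 106 probes, 11 without the body wall and 4 to 6 without 1 specimen. For the sex term (0 probes), 1 passed with a floor of 1000, with net signals, with net signals over U6 and with slide a alone, and 0 to 1 without 1 tissue pair. On the date of the MT arrays (4 higher, 2 lower), leaving out 1 specimen gave 1 to 7 higher and 0 to 4 lower; 0 were lower with a floor of 1000 and 1 with net signals not centred, with slide a and with slide b. Expressed probes numbered 50, and 25 after centring, 31 at a threshold of 2000 and 88 at 500. Probes higher in the female MT numbered 8, and 5 with ratios divided by their median and with net signals, each with 3 higher in the male. The 3 brightest probes, with spots at the ceiling, held at least 39.3% of the summed signal in the female and 40.2% in the male. With SW-106, SW-54 and SW-8 left out, the next 3 brightest held 30.0% and 23.2% of the remaining sum. The cause of these changes was not tested, apart from the shift that the centring itself makes.

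The larval results rest on 2 MT specimens from 1 file date. The net signals near the ceiling limit the sizes of SW-106, SW-54 and SW-8, and the low range of the MT arrays limits what probes at 500 to 1000 can show. A normexp background correction was not run, since the files used hold net signals without separate foreground and background.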

Other observations

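Over all 106 probes, 11 had both MT specimens above all 16 other larval specimens. Of these, 7 were among the 55 probes tested (12.7%). The other 4 lay outside them, and none of the 4 reached 1000 in the MT. SW-105 gave 858 in the female and 992.5 in the male, against at most 517 elsewhere. SW-67 gave 773.5 and 920, against at most 476. SW-14 gave 567 and 484, against at most 448, and SW-12 gave 408 and 241.5, against at most 179.7. They lie within the low range in which the MT arrays, as a whole, read higher than most others, and they were chosen after their values were seen.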
